A study of Mus musculus with 14 samples.

Results

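Interferon-stimulated genes were examined as a group of 44 genes in whole mouse lung, chosen as a list of symbols and matched to array probes by RefSeq accession. All 44 were found, on 63 of 56605 probes, and all 44 were above background on at least 3 of 14 arrays, so that all are among the 30579 genes tested. Of these 30579, 17290 have a symbol, and each of the others is a probe without a symbol, counted as a gene. The list holds 34 genes classed as type I interferon genes and 10 classed as gamma-induced genes. Interferons are cytokines released by infected or injured tissue and by lymphocytes. Type I interferons signal through the kinases Jak1 and Tyk2 to a complex with Stat2 and Irf9 that binds the interferon-stimulated response element (ISRE), and interferon gamma acts mainly through gamma-activated sites (GAS) and through the factor Irf1. In lung these programmes are best known from defence against viruses and intracellular bacteria.

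The lungs came from male C57BL/6N mice, 1 month after 200 µg of carbon fibre per mouse had been placed in the trachea. Groups were fibre before recycling (VCF, 3 mice), fibre after carbonization (CCF, 3 mice), fibre after firing (RCF, 3 mice) and PBS vehicle (control, 5 mice), with 1 one-colour array per mouse and no age stated. Values are log2 intensity relative to the array's 75th percentile, so that 0 is that percentile, and a difference from control is given in log2 units, where ± is the standard error by limma (3 arrays per fibre, 5 controls). "Adjusted p" is limma's p with Benjamini-Hochberg adjustment over all genes tested, with a threshold of 0.05. The fibre arrays VCF 1, CCF 2 and RCF 1 were dim, with 75th percentiles of intensity from 277 to 375 against 891 to 2953 on the other arrays. Slide 1 held VCF 1 and 2, CCF 1 and 2, RCF 1 and control 1 and 2, slide 2 held VCF 3, CCF 3 and control 3, and slide 3 held RCF 2 and 3 and control 4 and 5. Of the lung markers, Sftpc (surfactant protein C) averaged 8.39 in VCF, 7.94 in CCF, 8.08 in RCF and 8.38 in control, and Scgb1a1, of airway club cells, 8.33, 7.81, 7.81 and 8.22.

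Promoter sequences show the elements by which these genes are usually recognised, and are given for 3 sets of members with a window in the RefSeq table. Stat2, Irf9 and Trim30a passed the threshold, Ifih1, Ifit1, Isg15 and Gbp2 stand first in the lists of 4 roles (sensors, IFIT and OAS, effectors, GTPases), and Samhd1, Trim25 and Xaf1 had probes that differed in sign in CCF. They are 300-base windows on GRCm38.p6 from RefSeq, 250 bases before to 50 bases after the gene start, read along the gene's strand. Capitals mark matches to the ISRE core, which is GAAA, any 2 bases and GAAA, on either strand, where overlapping matches run together. The exception is the Samhd1 window, which has no ISRE match and where capitals mark the GAS pattern TTCNNNGAA (N is any base). The windows lie at chr10:128270248-128270547 (plus strand) for Stat2, chr14:55603735-55604034 (plus) for Irf9, chr7:104465144-104465443 (minus) for Trim30a, chr2:62646206-62646505 (minus) for Ifih1, chr19:34640639-34640938 (plus) for Ifit1, chr4:156200769-156201068 (minus) for Isg15, chr3:142620413-142620712 (plus) for Gbp2, chr2:157135047-157135346 (minus) for Samhd1, chr11:88999153-88999452 (plus) for Trim25 and chr11:72301379-72301678 (plus) for Xaf1.
Stat2: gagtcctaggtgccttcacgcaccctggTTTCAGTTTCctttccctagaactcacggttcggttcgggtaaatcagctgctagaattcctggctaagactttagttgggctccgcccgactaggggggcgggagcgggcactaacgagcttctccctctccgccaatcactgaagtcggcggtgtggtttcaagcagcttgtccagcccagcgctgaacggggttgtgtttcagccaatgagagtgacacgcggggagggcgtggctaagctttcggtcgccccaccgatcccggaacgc
Irf9: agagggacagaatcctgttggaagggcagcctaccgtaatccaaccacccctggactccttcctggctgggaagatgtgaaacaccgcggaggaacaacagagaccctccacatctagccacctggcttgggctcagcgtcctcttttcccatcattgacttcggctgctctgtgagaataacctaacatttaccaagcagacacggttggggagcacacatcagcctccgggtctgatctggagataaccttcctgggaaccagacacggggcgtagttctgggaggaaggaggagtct
Trim30a: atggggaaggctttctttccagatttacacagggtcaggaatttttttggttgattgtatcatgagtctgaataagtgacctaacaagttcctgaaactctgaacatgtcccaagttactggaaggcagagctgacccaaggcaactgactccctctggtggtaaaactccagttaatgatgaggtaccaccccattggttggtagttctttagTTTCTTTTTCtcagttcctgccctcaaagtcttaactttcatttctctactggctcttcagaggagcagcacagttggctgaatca
Ifih1: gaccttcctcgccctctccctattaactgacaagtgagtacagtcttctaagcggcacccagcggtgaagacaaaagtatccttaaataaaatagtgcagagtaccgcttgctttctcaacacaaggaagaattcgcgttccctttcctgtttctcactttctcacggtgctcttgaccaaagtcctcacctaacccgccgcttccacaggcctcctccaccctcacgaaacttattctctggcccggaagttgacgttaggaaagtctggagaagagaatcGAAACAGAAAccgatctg
Ifit1: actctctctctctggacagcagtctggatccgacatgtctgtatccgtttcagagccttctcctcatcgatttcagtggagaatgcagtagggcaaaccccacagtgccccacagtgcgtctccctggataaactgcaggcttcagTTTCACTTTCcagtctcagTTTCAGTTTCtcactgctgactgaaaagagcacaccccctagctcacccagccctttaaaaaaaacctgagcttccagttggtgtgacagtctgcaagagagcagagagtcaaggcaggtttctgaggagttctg
Isg15: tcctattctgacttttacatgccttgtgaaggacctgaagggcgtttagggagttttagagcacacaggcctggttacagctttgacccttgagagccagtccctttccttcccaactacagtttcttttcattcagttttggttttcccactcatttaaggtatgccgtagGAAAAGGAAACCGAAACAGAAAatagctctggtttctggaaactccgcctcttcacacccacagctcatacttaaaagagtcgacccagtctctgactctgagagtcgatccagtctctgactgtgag
Gbp2: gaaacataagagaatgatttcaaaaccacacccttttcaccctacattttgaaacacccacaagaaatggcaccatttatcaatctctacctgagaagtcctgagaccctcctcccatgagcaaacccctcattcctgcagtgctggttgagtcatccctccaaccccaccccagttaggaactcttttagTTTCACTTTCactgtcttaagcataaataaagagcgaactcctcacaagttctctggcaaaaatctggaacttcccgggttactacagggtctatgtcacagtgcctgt
Samhd1: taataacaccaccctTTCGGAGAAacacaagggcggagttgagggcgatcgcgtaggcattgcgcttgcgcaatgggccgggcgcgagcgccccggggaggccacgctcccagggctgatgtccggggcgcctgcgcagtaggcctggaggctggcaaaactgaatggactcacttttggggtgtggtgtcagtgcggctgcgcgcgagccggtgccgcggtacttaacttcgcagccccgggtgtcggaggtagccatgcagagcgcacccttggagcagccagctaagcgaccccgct
Trim25: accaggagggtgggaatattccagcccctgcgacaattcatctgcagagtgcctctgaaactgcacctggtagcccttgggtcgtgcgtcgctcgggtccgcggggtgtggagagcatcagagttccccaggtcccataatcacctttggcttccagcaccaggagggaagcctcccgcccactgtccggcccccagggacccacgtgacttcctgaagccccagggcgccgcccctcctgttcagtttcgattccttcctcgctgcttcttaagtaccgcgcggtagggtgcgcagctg
Xaf1: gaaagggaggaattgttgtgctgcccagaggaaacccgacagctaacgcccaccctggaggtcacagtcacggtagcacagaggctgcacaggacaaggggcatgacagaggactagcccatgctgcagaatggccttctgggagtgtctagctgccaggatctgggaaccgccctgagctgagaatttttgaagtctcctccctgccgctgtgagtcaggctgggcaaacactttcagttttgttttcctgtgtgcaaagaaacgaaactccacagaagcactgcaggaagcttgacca

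Isg15 had 3 overlapping ISRE matches, Ifit1 had 2 and Stat2, Trim30a, Ifih1 and Gbp2 had 1 each in these windows. Samhd1, Trim25, Xaf1 and both windows of Irf9 held none, which says only that these letters are not there. Nor did the windows of Ifi44, Psmb8 and Psmb9, which are not printed. Of the 44 members, 35 had a window, and 16 of those (45.7%) held the ISRE core, against 1079 of 27025 genes (3.99%). The GAS pattern TTCNNNGAA, which is the same on both strands, was found in 10 of 35 members (28.6%), against 9.55% of all genes. By class, the ISRE core stood in 11 of 26 type I members (42.3%) and 5 of 9 gamma members (55.6%), and the GAS pattern in 6 (23.1%) and 4 (44.4%). These are matches of letters, with no binding measured.

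Over the whole group, CCF lungs had 4 of 44 members past the threshold, 3 higher and 1 lower, while VCF and RCF lungs had 0. Among all genes tested the share past the threshold was 5.99% in CCF (3.78% higher and 2.21% lower), 0.085% in VCF and 0.154% in RCF, and by direction it was 0.0294% higher and 0.0556% lower in VCF and 0.131% higher and 0.0229% lower in RCF. The share of members past it in CCF was near that background. At an unadjusted p under 0.05 by limma, 1 member was higher and 5 lower in VCF, 17 higher and 2 lower in CCF, and 8 higher and 0 lower in RCF. The background for those counts was 4.97% higher and 4.99% lower in VCF, 12.9% higher and 10.8% lower in CCF, and 8.78% higher and 4.15% lower in RCF. All 3 fibre arrays lay above all 5 control arrays for 1 member in VCF (background 3.46%), 12 in CCF (9.9%) and 9 in RCF (7.61%). They lay below for 1 member in VCF (3.91%), 0 in CCF (6.46%) and 1 in RCF (3.78%). The member that lay above in VCF was Oas3, which was above background on 2 of 3 VCF and 2 of 5 control arrays. The 3 comparisons share the control arrays.

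**Figure D1:**
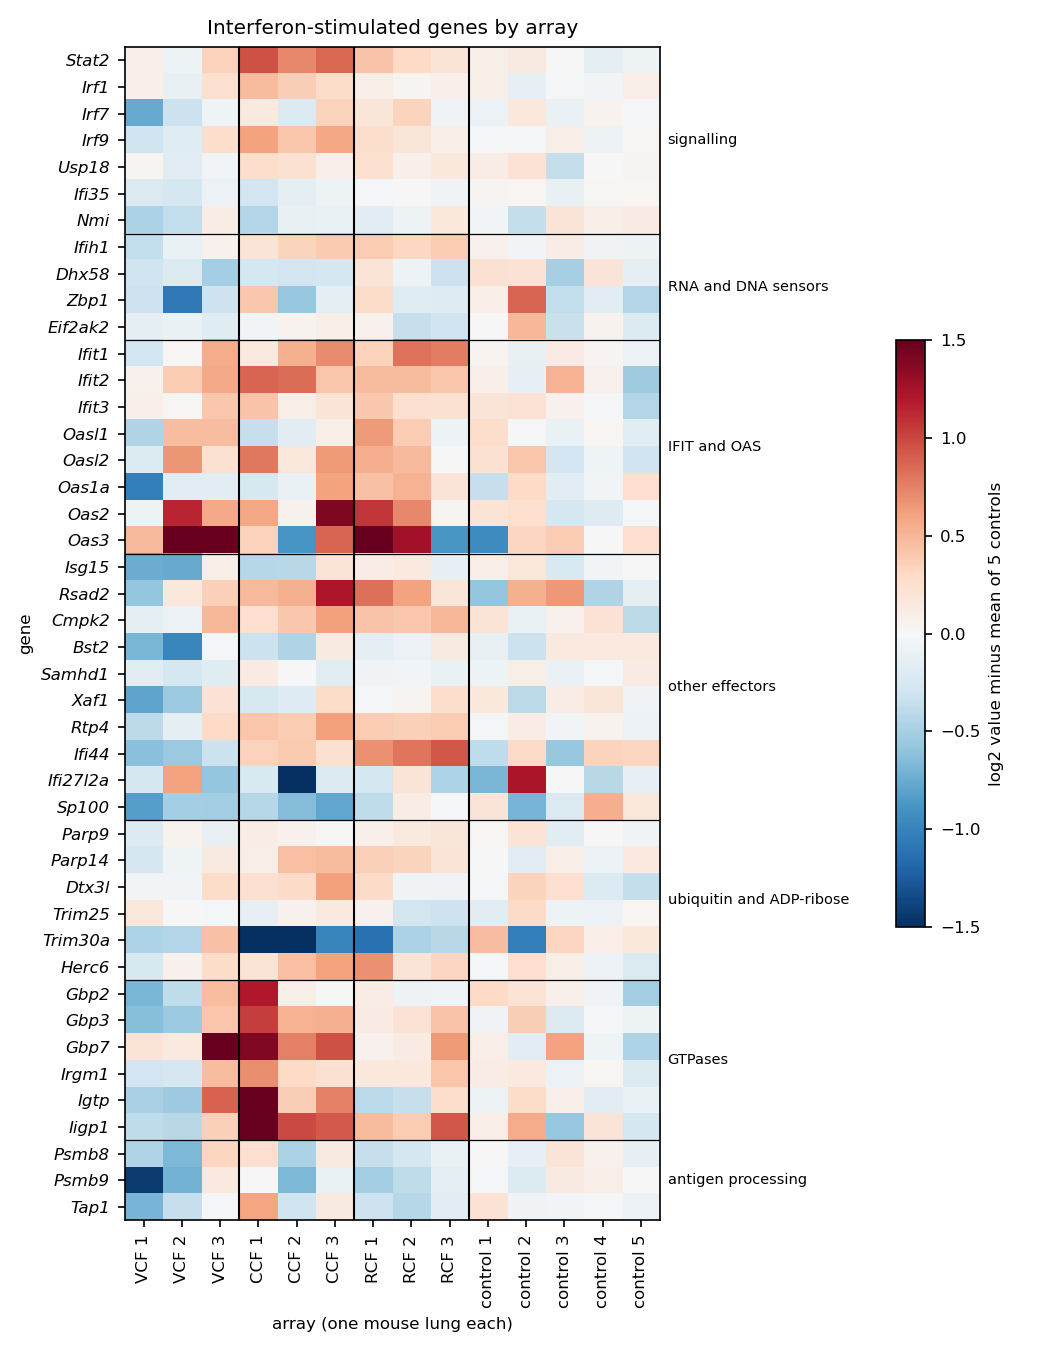
Log2 value of each of the 44 genes on each array minus the mean of the 5 controls, with genes grouped by role (rows) and arrays by group (columns). The colour scale ends at −1.5 and 1.5 and larger differences have the end colour. The GTPase rows are red on the 3 CCF arrays, except Gbp2, which lies near the control mean on CCF 2 and 3. Trim30a is blue on the CCF arrays.

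The type I members lay near all genes in the middle, and the gamma members lay higher in CCF. The median log2 difference over the 34 type I members was −0.08 in VCF, 0.10 in CCF and 0.17 in RCF, and over the 10 gamma members −0.17 in VCF, 0.42 in CCF and 0.03 in RCF. Over all genes tested it was −0.00, −0.00 and 0.06, with an upper quartile of 0.31 in CCF. Differences were positive for 14 of 44 members in VCF, 30 in CCF and 28 in RCF. Over all genes tested the positive share was 49.7% in VCF, 49.7% in CCF and 57.1% in RCF. Arrays of one group were not alike in this. The gamma median, relative to the control mean, was −0.47, −0.40 and 0.39 on VCF arrays 1 to 3, 0.87, 0.33 and 0.25 in CCF 1 to 3, 0.08, −0.02 and 0.17 in RCF 1 to 3, and 0.09, 0.05, 0.03, −0.03 and −0.11 in control 1 to 5. VCF 3, on slide 2, thus lay above every control where VCF 1 and 2, on slide 1, lay below every control. The type I median was −0.27, −0.10 and 0.13 in VCF, 0.14, 0.06 and 0.25 in CCF, 0.28, 0.20 and 0.11 in RCF, and 0.03, 0.16, −0.02, −0.01 and −0.05 in control. CCF 1 was the highest of 14 arrays for 7 of the 10 gamma members, CCF 3 for 11 of the 34 type I members, and the dim array VCF 1 was the lowest for 19 of all 44.

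**Figure D2:**
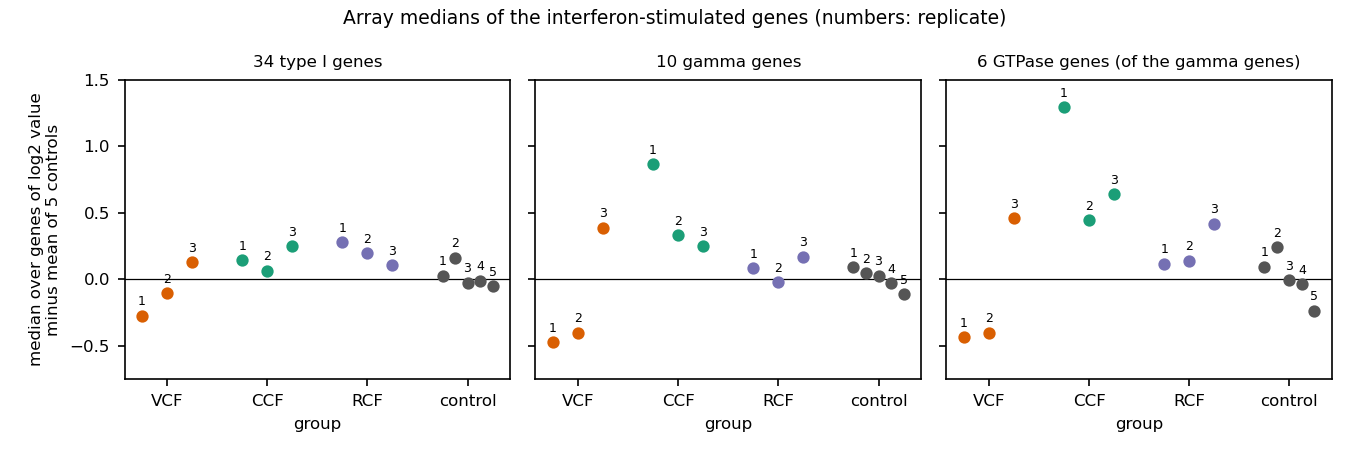
Median over the type I, gamma and GTPase genes of the log2 value minus the mean of the 5 controls, 1 point per array with its replicate number. VCF 3 lies apart from VCF 1 and 2 in the gamma and GTPase panels, and CCF 1 is the highest array there.

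Signalling and regulatory members held 2 of the 3 rises in CCF. Stat2 and Irf9, which belong to the factor that carries the type I signal to the ISRE, rose in CCF, at 1.80-fold and 1.45-fold. Stat2 stood at 2.39, 2.24 and 2.65 on VCF arrays 1 to 3, 3.27, 3.04 and 3.17 in CCF 1 to 3, 2.74, 2.61 and 2.52 in RCF 1 to 3, and 2.41, 2.45, 2.31, 2.17 and 2.24 in control 1 to 5. Every CCF array lay above every other array. Stat2 rose by 0.85 ± 0.13 in CCF (adjusted p = 0.0081), was at 0.12 ± 0.13 in VCF (adjusted p = 0.864) and at 0.31 ± 0.13 in RCF (adjusted p = 0.321). All RCF arrays also lay above all controls. In the mean of the 3 fibres Stat2 was the one member past the threshold, at 0.42 ± 0.10 (adjusted p = 0.0455), where 2.58% of all genes passed (2% higher and 0.579% lower). That call held without VCF 1 or control 2 and was lost without any other single array (adjusted p at most 0.137). Within slides the CCF difference was 0.73 on slide 1 and 0.87 on slide 2. A second probe for Stat2, above background on 8 of 14 arrays, stood at −0.10 in CCF and 0.81 in VCF, and with the mean of both probes the CCF difference was 0.37 and did not pass (adjusted p = 0.601).

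Irf9 stood at 2.30, 2.41 and 2.86 on VCF arrays 1 to 3, 3.21, 3.01 and 3.18 in CCF 1 to 3, 2.87, 2.79 and 2.68 in RCF 1 to 3, and 2.57, 2.58, 2.70, 2.52 and 2.62 in control 1 to 5. Here too the 3 CCF arrays were the highest of 14. Irf9 rose by 0.53 ± 0.13 in CCF (adjusted p = 0.0399), with 0.53 on slide 1 and 0.48 on slide 2, and was at −0.07 in VCF and 0.18 in RCF. The call was lost without CCF 1, CCF 2, CCF 3, control 1, control 4 or control 5 in turn (adjusted p = 0.0730 to 0.124), and with the mean of its 2 probes (0.36, adjusted p = 0.287). The second Irf9 probe alone stood at 0.18 in CCF.

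The other 5 signalling members did not pass in any fibre. Irf1, the gamma-induced factor, stood at 4.53, 4.35 and 4.70 in VCF, 4.93, 4.82 and 4.73 in CCF, 4.56, 4.49 and 4.53 in RCF, and 4.54, 4.33, 4.44, 4.41 and 4.55 in control. The CCF arrays lay above all controls by a small amount, with a difference of 0.37 ± 0.11 (adjusted p = 0.0712). Irf7, which amplifies type I interferon production, was at −0.38 in VCF, 0.09 in CCF and 0.15 in RCF. Usp18, the protease that removes Isg15 and damps the type I receptor, was at −0.05, 0.19 and 0.16 in the same order. Ifi35 and Nmi, partner proteins induced by interferon, lay between −0.24 and −0.02 in all 3 fibres.

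**Figure D3:**
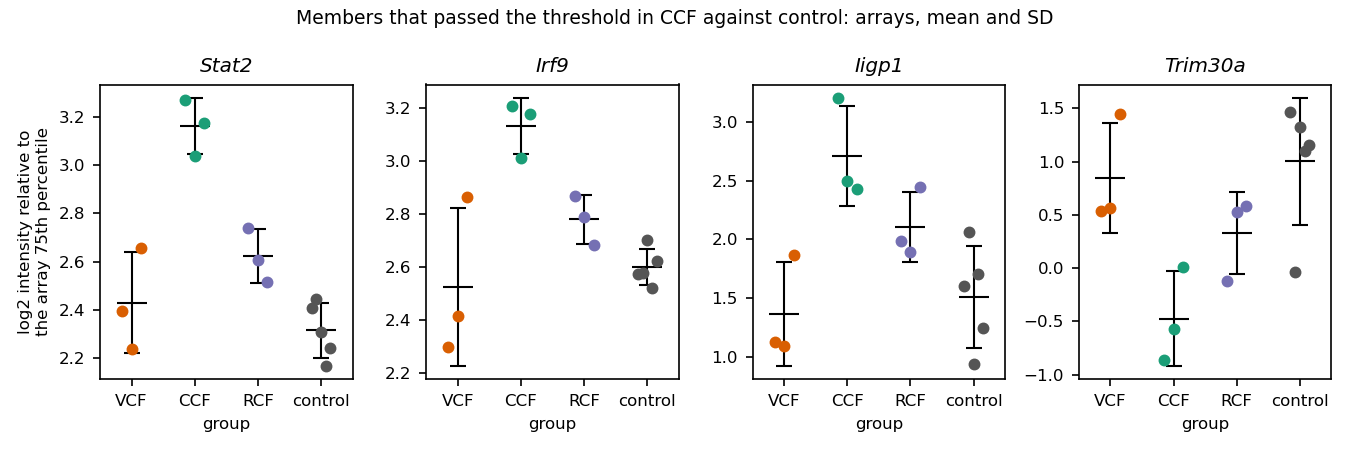
Log2 intensity relative to the array 75th percentile of the 4 members that passed the threshold in CCF against control, by group (points are arrays, bars the mean and SD). The 3 CCF points lie above all control points for Stat2, Irf9 and Iigp1, and for Trim30a 1 of the controls lies within the CCF range.

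The 6 interferon-induced GTPases, which attack the vacuoles of intracellular pathogens, were the role with the largest shift in CCF. All 6 differences from control were positive in CCF (49.7% of all genes), from 0.41 to 1.20 with a median of 0.83. For 5 of the 6 the CCF arrays lay above all controls (9.9% of all genes). Only Iigp1 passed. The median was −0.10 in VCF and 0.25 in RCF. Iigp1, an immunity-related GTPase, stood at 1.13, 1.09 and 1.87 on VCF arrays 1 to 3, 3.20, 2.49 and 2.43 in CCF 1 to 3, 1.98, 1.89 and 2.44 in RCF 1 to 3, and 1.60, 2.06, 0.94, 1.70 and 1.24 in control 1 to 5. The CCF arrays were above all controls, and RCF 3 reached the level of CCF 3. Iigp1 rose by 1.20 ± 0.29 in CCF (2.30-fold, adjusted p = 0.0340), with 1.02 on slide 1 and 1.49 on slide 2, and was at −0.15 in VCF and 0.60 in RCF (adjusted p = 0.945 and 0.416). The CCF call was lost without CCF 1, CCF 2, CCF 3, control 1, control 4 or control 5 in turn (adjusted p = 0.0623 to 0.129), and with slide as a fixed block (1.22, adjusted p = 0.0581).

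Gbp7, a guanylate-binding protein, stood at −1.06, −1.12 and 0.32 in VCF, 0.12, −0.52 and −0.31 in CCF, −1.20, −1.15 and −0.63 in RCF, and −1.17, −1.44, −0.67, −1.34 and −1.73 in control. VCF 3 was the highest array of all, and the CCF arrays lay above the controls. The difference was 1.03 ± 0.34 in CCF (adjusted p = 0.0887), 0.65 in VCF and 0.27 in RCF. In CCF Gbp3 was at 0.70 (adjusted p = 0.101), Igtp at 0.95 (adjusted p = 0.135) and Gbp2, where CCF 1 alone was high, at 0.43 (adjusted p = 0.451). Irgm1, which controls the other immunity-related GTPases, was at 0.41, and its 2 further probes were at 0.89 and 0.62. These genes belong to families of related sequence, as do the Trim30, Ifit and Oas1 genes, and some probes may read more than 1 of them. Whether any probe does so was not tested.

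Members that mark proteins with ubiquitin or ADP-ribose held the one fall. Trim30a, a ring-finger protein known to damp Toll-like receptor signalling, fell in CCF by 2.78-fold. It stood at 0.54, 0.56 and 1.44 on VCF arrays 1 to 3, −0.86, −0.57 and 0.01 in CCF 1 to 3, −0.12, 0.52 and 0.58 in RCF 1 to 3, and 1.47, −0.03, 1.32, 1.10 and 1.16 in control 1 to 5. Control 2 lay among the CCF arrays, and the other 4 controls lay well above them. Trim30a fell by 1.48 on the log2 scale with a standard error of 0.36 in CCF (adjusted p = 0.0347), with −1.43 on slide 1 and −1.32 on slide 2, and was at −0.15 in VCF and −0.67 in RCF. The call was lost without each of CCF 1 to 3 and of control 1, 3, 4 and 5 in turn (adjusted p = 0.0540 to 0.125), and without control 2 the difference was −1.73 (adjusted p = 0.00888). Parp14, a mono-ADP-ribosyltransferase, stood at 2.46, 2.65 and 2.85 in VCF, 2.82, 3.16 and 3.19 in CCF, 3.07, 3.05 and 2.91 in RCF, and 2.72, 2.55, 2.81, 2.62 and 2.86 in control. Its differences were −0.06, 0.34 and 0.29 (adjusted p = 0.951, 0.150 and 0.384 in VCF, CCF and RCF), while its second probe was at −0.31 in CCF. Herc6, the mouse ligase that attaches Isg15, was at 0.42 in CCF and 0.40 in RCF, Dtx3l and Parp9, which act as a pair, were between −0.09 and 0.38 in all fibres, and Trim25, which ubiquitinates RIG-I, was between −0.17 and 0.05.

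**Figure D4:**
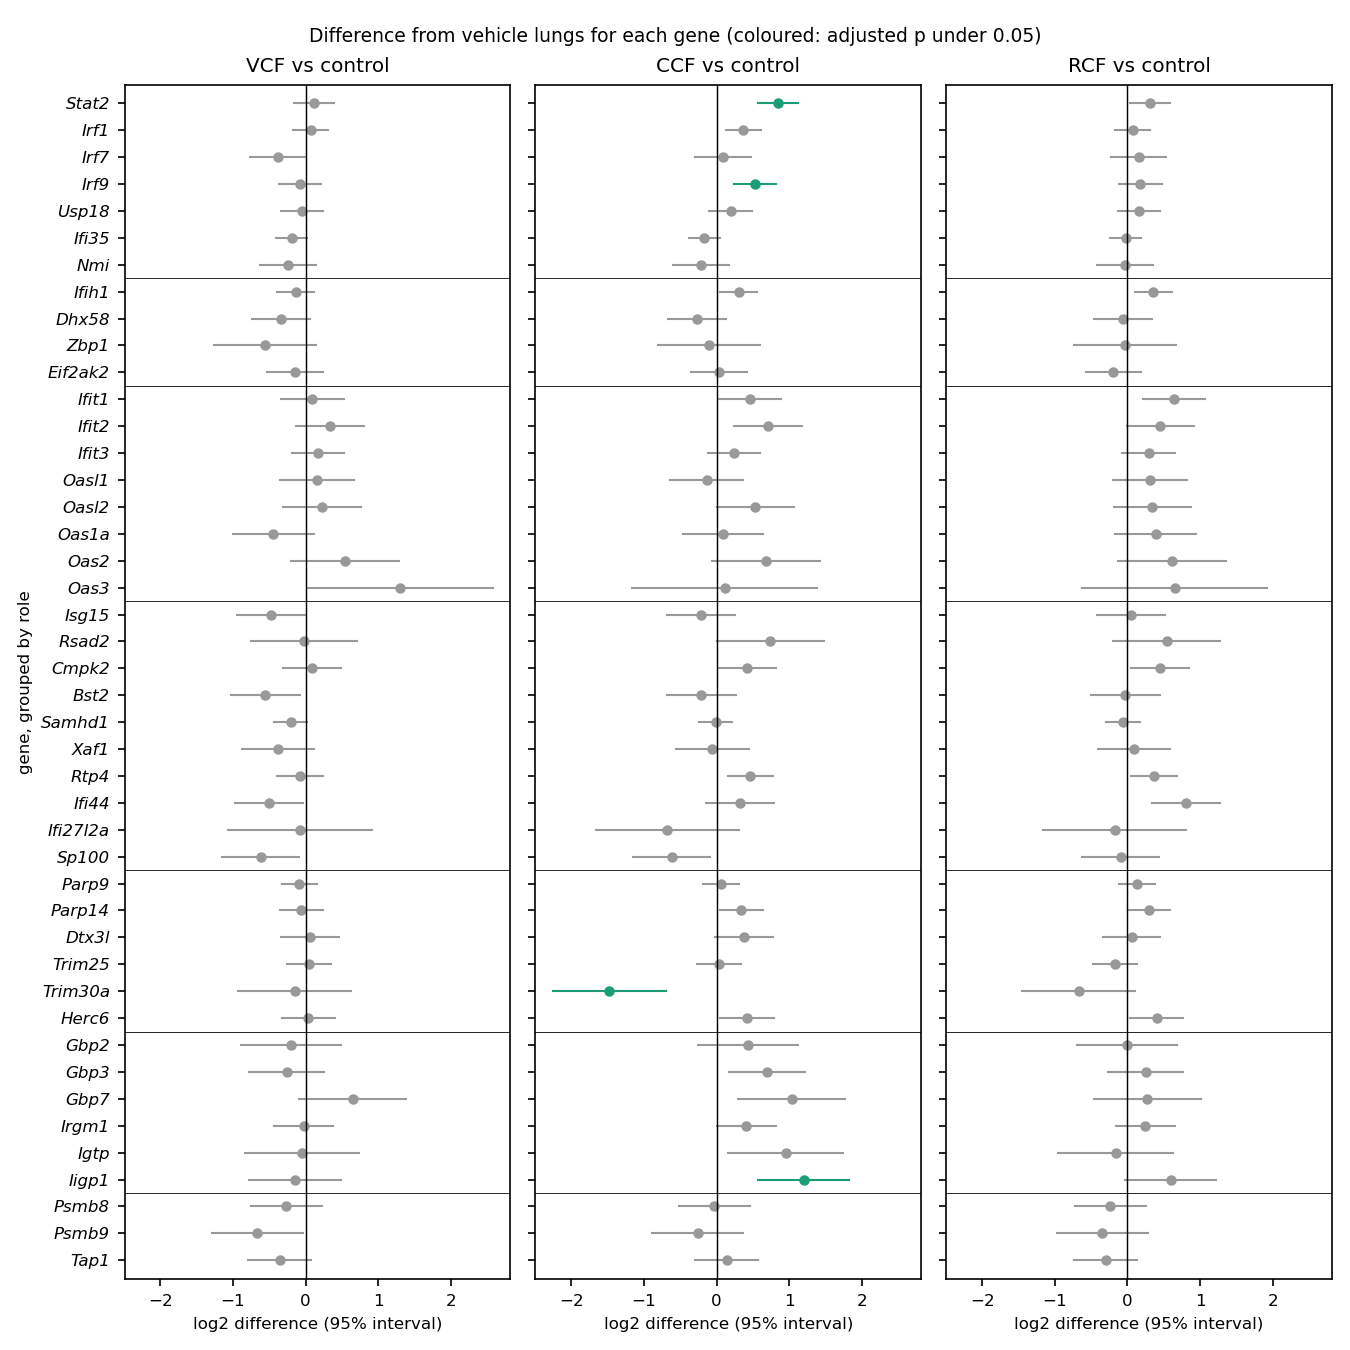
Log2 difference from control with its 95% interval for each of the 44 genes in VCF, CCF and RCF, by role. Coloured points passed an adjusted p under 0.05, and these are Stat2, Irf9, Trim30a and Iigp1 in CCF.

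No IFIT or OAS member passed in any fibre. The IFIT proteins bind foreign RNA, and the OAS enzymes make the messenger that turns on RNase L. All 8 differences were positive in RCF, 7 in CCF and 7 in VCF, with medians of 0.42, 0.35 and 0.20. Of all genes 57.1%, 49.7% and 49.7% were positive, in the same order. Within slides the median was −0.10 on slide 1 and 0.47 on slide 2 in VCF, and 0.08 and 0.54 in CCF. In RCF it was 0.48 on slide 1 and 0.45 on slide 3. Slide 2 holds 1 array each of VCF, CCF and control. Ifit1 stood at −1.22, −0.92 and −0.38 in VCF, −0.78, −0.40 and −0.22 in CCF, −0.59, −0.12 and −0.16 in RCF, and −0.89, −1.04, −0.80, −0.89 and −1.02 in control. CCF and RCF arrays lay above all controls, and VCF arrays spanned them. The Ifit1 difference was 0.09 ± 0.20 in VCF (adjusted p = 0.950), 0.46 ± 0.20 in CCF (adjusted p = 0.182) and 0.64 ± 0.20 in RCF (adjusted p = 0.194). Ifit2 stood at −2.10, −1.79 and −1.60 in VCF, −1.29, −1.33 and −1.75 in CCF, −1.69, −1.69 and −1.75 in RCF, and −2.09, −2.29, −1.64, −2.10 and −2.70 in control. Control 3 lay within the fibre range, and the CCF difference of 0.71 ± 0.21 (adjusted p = 0.0705) was 0.88 on slide 1 and −0.11 on slide 2. Oas3 was above background on 9 of 14 arrays and had the widest interval of the group, with 1.30 ± 0.58 in VCF (adjusted p = 0.490).

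Of the 10 other effectors none passed. Ifi44, an interferon-induced antiviral protein, stood at −2.57, −2.49 and −2.27 in VCF, −1.60, −1.55 and −1.72 in CCF, −1.26, −1.14 and −1.01 in RCF, and −2.33, −1.65, −2.51, −1.61 and −1.62 in control. The RCF arrays were the highest of 14, while the controls spread over the range from VCF to CCF. Its difference was −0.50 ± 0.22 in VCF (adjusted p = 0.469), 0.32 ± 0.22 in CCF (adjusted p = 0.407) and 0.80 ± 0.22 in RCF (adjusted p = 0.148), and the RCF value was 0.73 on slide 1 and 0.54 on slide 3. Rtp4, a chaperone of receptors that also acts on viruses, stood at 2.01, 2.26 and 2.70 in VCF, 2.81, 2.77 and 3.01 in CCF, 2.78, 2.75 and 2.77 in RCF, and 2.36, 2.51, 2.36, 2.45 and 2.31 in control. CCF and RCF arrays lay above all controls, with 0.47 ± 0.14 in CCF (adjusted p = 0.0759) and 0.37 ± 0.14 in RCF (adjusted p = 0.296). Isg15, the ubiquitin-like modifier, was at −0.47 in VCF, −0.21 in CCF and 0.05 in RCF, and Bst2, the tether of budding viruses, at −0.56, −0.21 and −0.03. Rsad2 (viperin) and its neighbour Cmpk2, a nucleotide kinase, were at 0.74 and 0.42 in CCF and 0.54 and 0.44 in RCF. Samhd1, Xaf1, Ifi27l2a and Sp100 lay between −0.68 and 0.09 in all fibres.

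The sensors of foreign nucleic acid did not pass either. Ifih1, which encodes the RNA sensor MDA5, stood at −0.09, 0.18 and 0.34 in VCF, 0.47, 0.62 and 0.68 in CCF, 0.66, 0.59 and 0.67 in RCF, and 0.34, 0.24, 0.39, 0.23 and 0.21 in control. All CCF and RCF arrays lay above all controls, at 0.31 ± 0.12 in CCF (adjusted p = 0.138) and 0.36 ± 0.12 in RCF (adjusted p = 0.216). Dhx58, which encodes the related sensor LGP2, stood at −1.43, −1.35 and −1.64 in VCF, −1.39, −1.42 and −1.40 in CCF, −0.94, −1.21 and −1.45 in RCF, and −0.90, −0.91, −1.63, −0.94 and −1.28 in control. The groups overlapped, with differences of −0.34, −0.27 and −0.07 in VCF, CCF and RCF. Zbp1, a sensor of Z-form nucleic acid, and Eif2ak2, the RNA-activated kinase PKR, lay between −0.56 and 0.03, and the second probe of Zbp1 was at 0.70 in CCF.

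Antigen processing members, whose products cut peptides and carry them to MHC class I, did not pass in any fibre. Psmb9, an immunoproteasome subunit, stood at 2.01, 2.75 and 3.60 in VCF, 3.45, 2.78 and 3.36 in CCF, 2.94, 3.07 and 3.30 in RCF, and 3.43, 3.25, 3.58, 3.55 and 3.45 in control. The difference was −0.66 ± 0.29 in VCF (adjusted p = 0.473), −0.96 on slide 1 and 0.02 on slide 2, and −0.26 in CCF and −0.35 in RCF. Tap1, a subunit of the peptide transporter, stood at 1.45, 1.81 and 2.13 in VCF, 2.74, 1.85 and 2.29 in CCF, 1.84, 1.72 and 1.99 in RCF, and 2.37, 2.10, 2.11, 2.12 and 2.06 in control. The RCF arrays lay below all controls, at −0.30 ± 0.20 (adjusted p = 0.587), and Psmb8 was between −0.27 and −0.03 in the 3 fibres.

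Between fibres no member passed the threshold, where 0.222% of all genes passed for CCF against VCF, 0.00981% for RCF against VCF and 0.00327% for RCF against CCF. At an unadjusted p under 0.05 by limma, 12 members were higher and 1 lower in CCF than in VCF, 8 higher and 0 lower in RCF than in VCF, and 0 higher and 4 lower in RCF than in CCF. Over all genes these shares were 7.56% higher and 6.21% lower, 6.17% and 2.88%, and 5.88% and 3.38%, in the same order of comparisons. Stat2 differed by 0.73 between CCF and VCF (95% interval 0.42 to 1.04, adjusted p = 0.0687) and by −0.54 between RCF and CCF (−0.85 to −0.23, adjusted p = 0.428). Ifi44 differed by 1.31 between RCF and VCF (0.78 to 1.83, adjusted p = 0.160), with no overlap of the arrays. The 6 GTPases were all lower in RCF than in CCF, where 55.1% of all genes were higher. Their median was −0.52, and Igtp was at −1.11 ± 0.40 (adjusted p = 0.485). For CCF against VCF the GTPase median was 1.28 on slide 1 and −0.19 on slide 2, which holds 1 array of each fibre. On slide 2 Iigp1 was at 0.56 and Gbp3 at 0.12, and the other 4 GTPases were below 0.

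Of 51 other genes of interferon production, signalling and response, 43 were tested, and 2 passed in CCF, both higher, with 0 in VCF and 0 in RCF, where 5.99%, 0.085% and 0.154% of all genes passed in CCF, VCF and RCF. At an unadjusted p under 0.05 by limma, 1 was higher and 5 lower in VCF, 11 were higher and 2 lower in CCF, and 5 were higher and 2 lower in RCF, beside the shares of all genes given above for that p. Trim21, an interferon-induced antibody receptor of the cytosol, stood at 0.07, 0.09 and 0.20 in VCF, 0.76, 0.84 and 0.67 in CCF, 0.65, 0.52 and 0.54 in RCF, and 0.19, 0.07, −0.10, 0.00 and −0.11 in control. CCF and RCF arrays lay above all controls. Trim21 rose by 0.75 ± 0.11 in CCF (adjusted p = 0.0072) and by 0.47 ± 0.08 in the mean of the 3 fibres (adjusted p = 0.0216), and was at 0.56 ± 0.11 in RCF (adjusted p = 0.0717). Tyk2, the kinase of the type I receptor, stood at −1.38, −1.12 and −1.03 in VCF, −0.63, −1.13 and −0.41 in CCF, −1.12, −1.89 and −2.05 in RCF, and −1.85, −2.26, −1.22, −1.55 and −1.75 in control. Its CCF arrays lay above all controls. Tyk2 rose by 1.00 ± 0.27 in CCF (adjusted p = 0.0491). Of 8 interferon genes, 3 were tested: Ifng was at −0.62, −0.03 and 0.15 in VCF, CCF and RCF, Ifnl3 was at −0.39, −0.65 and 0.32, and Ifna2 was not well above background on any VCF or CCF array. The gamma-induced chemokine gene Cxcl9 was at 1.85 in CCF (adjusted p = 0.170) and Cxcl10 at 0.82 (adjusted p = 0.148). Of 12 genes that sense nucleic acid and switch on interferon production, 6 were higher in CCF at an unadjusted p under 0.05 (12.9% of all genes) and none passed, with the adaptor gene Traf3 at 0.39 (adjusted p = 0.0734) and the RNA receptor gene Tlr3 at 0.45 (adjusted p = 0.128).

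Some markers of neutrophils fell in CCF, as did Cd79b of the B cell list and Ly6d of the plasmacytoid dendritic cell list. No other marker of those last lists passed in CCF. Cd79b and Ly6d were also lower in VCF and RCF, where neither passed the threshold. In whole-lung RNA fewer cells of a type and less RNA per cell cannot be told apart. The median of 10 neutrophil markers, relative to the control mean, was 0.71, 1.41 and 0.78 on VCF arrays 1 to 3, −1.16, −1.70 and −0.83 in CCF 1 to 3, 0.32, 0.31 and −0.75 in RCF 1 to 3, and from −0.26 to 0.23 in control. In CCF 4 of 10 fell past the threshold, where 2.21% of all genes passed as lower. The median of 7 B cell markers was from −0.90 to −0.46 in VCF, from −0.75 to −0.51 in CCF, from −0.69 to −0.67 in RCF and from −0.38 to 0.37 in control. Cd79b fell in CCF (−0.98, adjusted p = 0.0174) and was at −0.95 in VCF and −0.71 in RCF. It fell also in the mean of the 3 fibres (−0.88), where 0.579% of all genes passed as lower. For 9 T and NK cell markers the median was −0.74, −0.53 and −0.40 in VCF, 0.07, −0.44 and −0.07 in CCF, −0.37, −0.36 and 0.18 in RCF, and from −0.09 to 0.14 in control. Cd2 of this list fell past the threshold in the mean of the 3 fibres (−0.41), with −0.67 in VCF, −0.31 in CCF and −0.24 in RCF. For 7 of 8 plasmacytoid dendritic cell markers the median was from −0.88 to −0.35 in VCF, −0.62 to −0.37 in CCF, −0.40 to −0.33 in RCF and −0.20 to 0.19 in control. These markers were split, and 2, 2 and 3 of the 7 lay above the control mean on CCF 1 to 3. CCF 3 was the highest of 14 arrays for 3 of them. Ly6d fell in CCF (−1.41, adjusted p = 0.0200) and in the mean of the 3 fibres (−1.23), and was at −1.19 in VCF and −1.08 in RCF. For 8 monocyte markers the median was from −0.14 to 0.21 in VCF, 0.12 to 0.31 in CCF, 0.10 to 0.30 in RCF and −0.10 to 0.05 in control, and none passed. Of 7 lung cell markers none passed. The part of these markers in the interferon gene values was not tested.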

How the data were processed

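Each of 14 lungs gave 1 Cy3-labelled array (Quick Amp kit, per the labels' protocols). Per the file headers, the deposited intensity values come from Feature Extraction 10.7.3.1: a processed signal, background-subtracted and not scaled between arrays, and median signals of spot and background. The authors' deposited table holds log2 values equal to log2 of the processed signal minus 1 constant per array, with column medians from −0.52 to 0.30. Where those constants come from is not given here.

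The values used were log2 processed signal, less the 75th percentile of log2 over all non-control spots of that array. Outlier spots were left out and spots of a probe averaged. Probes well above background on at least 3 arrays were kept (37983 of 56605). Probes were named through their RefSeq accession (32994 with 1 symbol), and the probe with the highest mean stood for a gene. A kept probe without a symbol was tested as a gene of its own, so shares of all genes include such probes. No member spot was saturated. Limma (version 3.58.1, run in R 4.3.3) was fitted to all 14 arrays with 4 groups and no covariates, two-sided, for 7 comparisons, and was tested on simulated data. The number of arrays limits the precision.

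The members and all gene lists were chosen with earlier results of these data known. Each member past the threshold is given with its value on every array, otherwise the 2 members of each role with the smallest p in any fibre against control, with Irf1 added for its role. Of the other lists, members past the threshold and at most 3 others by p are named. Neutrophil markers are the exception and are given only as medians and a count. The interferon genes and the chemokines are given for their roles, chosen after their values were seen. Alternatives were quantile scaling, normexp background with an offset of 50 on the median signals (the mean signal was not in the files used here), 2 filters, the mean of a gene's probes, slide and replicate number as blocks, the authors' table, array weights, and leaving out the dim arrays or each array.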

Additional observations from a re-analysis of the deposited data

Results flagged for a closer look

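In 3 of 46 groups of 5 control arrays examined (44 members, and the type I and gamma medians), 1 array stood apart by Dixon's ratio of its gap to the range, against a critical value of 0.71 for 5 arrays. Chance gives about 1 in 20 such groups. For Trim30a control 2 was low at −0.03, where the other controls lay from 1.10 to 1.47 (ratio 0.753). For Ifi35 control 3 was low at 4.00, where the others lay from 4.13 to 4.15 (ratio 0.852). For Tap1 control 1 was high at 2.37, where the others lay from 2.06 to 2.12 (ratio 0.813).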

How the results depend on the processing

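The 4 members past the threshold in CCF (5.99% of all genes) became 5 with quantile scaling (4.9% of all genes), 1 with normexp background (1.34%), 7 with probes above background on all 14 arrays (13.6%), 1 with no filter (0.8%), 2 with the mean of a gene's probes (4.54%), 3 and 5 with slide as a fixed (6.11%) and a random block (9.66%), 4 in the authors' table (9.17%), 1 without the 3 dim arrays (1.37%) and 11 with array weights (16%). Leaving out 1 array gave 1 to 5, while from 0.844% (without CCF 2) to 8.89% (without control 2) of all genes passed. Stat2 passed each time (adjusted p = 0.00701 to 0.0354). The 1 member past it in the mean of the fibres became 0 with normexp (0.131%), no filter (0.105%), the probe mean (1.36%) or no dim arrays (0.549%), 5 with array weights (15.3%), and 0 to 2 without 1 array (0.2% to 3.38%). For CCF against VCF the count of 0 became 1 with the stricter filter (0.956%), in the authors' table (0.353%) and with array weights (0.893%), and 2 with slide as a fixed (1.84%) or a random block (2.15%). With array weights it became 4 for RCF against control, 4 for RCF against VCF and 1 for RCF against CCF, while 10.5%, 4.13% and 1.45% of all genes passed. VCF against control stayed at 0 in every setting run, and no called value changed sign. The cause of these shifts was not tested, except that the filters change how many genes share the adjustment and also limma's standard errors. For Stat2 in CCF the standard error of 0.126 became 0.118 with the stricter filter and 0.145 with no filter. The gamma median in VCF moved to −0.52 without VCF 3.

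With replicate number as a block, which leaves control 4 and 5 without weight, the count was 0 in all 7 comparisons (2 of all genes passed in CCF). In CCF 10 members were at an unadjusted p under 0.05 by limma, where the share of all genes was not counted. All 4 CCF calls were lost, with Stat2 at 0.77 (adjusted p = 0.101), Irf9 at 0.51 (0.193), Iigp1 at 1.18 (0.191) and Trim30a at −1.39 (0.138). The labels do not say what a number stands for, and numbers partly follow slides. Arrays of 1 number lay on 1 slide, except RCF 2 and RCF 3, so a shared slide and a pairing cannot be told apart by the correlations below. Arrays of 1 number in different groups had residuals correlated above r = 0.1 in 12 of 18 pairs (median r = 0.18), against 11 of 54 pairs of other numbers (median r = −0.03). This is a hint of something shared, and since 6 of 18 pairs did not reach it the numbers were not taken as a pairing of the mice. Dim arrays and 3 mice per fibre limit what these data can show.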

Other observations

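Of the 13 members with more than 1 probe above the filter, several had probes on opposite sides of 0 in CCF. Zbp1 was at −0.10 and 0.70, Xaf1 at −0.06 and 0.41, Parp14 at 0.34 and −0.31 and Samhd1 at −0.01, 0.23 and 0.15. Others lay on one side: Irf1 was at 0.37 and 0.67, Irf7 at 0.09 and 0.47, Tap1 at 0.14 and 0.52, Irgm1 at 0.41, 0.89 and 0.62, and Ifi35 at −0.17 and −0.11. In RCF the Tap1 probes were at −0.30 and −0.54 and the Irf7 probes at 0.15 and −0.29.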
